A study of Mus musculus with 6 samples.

Results

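Ribosome biogenesis factors make up the machinery that transcribes ribosomal RNA (rRNA) and trims, modifies and folds it into ribosomal subunits, and they are described here in premalignant and lymphomatous B cells carrying Eµ-Myc. A list of 60 such genes, described as induced by MYC, was matched by gene symbol to the probe sets of the array. Of these, 58 had a probe set of their own among 19938 genes measured. Noc2l was matched to no probe set, and the probe set of Ppan is shared with another gene, so neither was analysed here. The 60 genes were sorted by role into 8 polymerase I factors, 7 proteins of small nucleolar ribonucleoproteins (snoRNPs), 3 abundant nucleolar proteins with several roles, 22 small subunit factors and 20 large subunit factors, of which 18 were measured.

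The study hybridised total RNA of 6 samples to Mouse Gene 1.0 ST arrays, in 3 groups of 2. All mice carried the Eµ-Myc transgene, which places Myc under the heavy chain enhancer of immunoglobulin and so expresses it in B lineage cells. The premalignant group held sorted splenic B cells of Eµ-Myc mice from independent preparations, which the characteristics of the samples call normal control B cells. The other groups held primary Eµ-Myc B cell lymphomas generated with a short hairpin RNA (shRNA) against Ezh2, which methylates histone H3 as the enzyme of the polycomb repressive complex PRC2. One group carried shEzh2.781 and the other shEzh2.556. Lymphoma cells were enriched with a CD43 bead kit until B220 and GFP marked 95% of them or more. Ages and genetic background are not stated in the labels. Neither B cells without the transgene nor lymphomas without an Ezh2 hairpin were analysed here. Induction by MYC itself was therefore not measured, and malignancy, hairpin and cell preparation cannot be told apart in any comparison with premalignant cells. Whether both lymphoma arrays of a hairpin represent separate mice is not stated, so p-values reflect only the spread among these arrays, and that spread may be technical.

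rRNA is transcribed by RNA polymerase I in the nucleolus as a long precursor. The small subunit processome assembles on its first part, snoRNPs guide methylation and pseudouridylation of its bases, and a separate set of factors matures the large subunit. MYC binds the E-box CACGTG and is known for driving many of these genes, and high ribosome production is a feature of Myc-driven lymphoma. Whether that machinery stands at another level in lymphomas than in premalignant cells that already carry the transgene is the question addressed here.

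Myc and Ezh2 give the context of the comparison. Signals are normalised log2 values, so a difference of 1 is a 2-fold change. Myc signal was 13.11 and 13.05 on the premalignant arrays, 13.18 and 13.20 with shEzh2.781, and 13.22 and 13.27 with shEzh2.556. All 4 lymphoma arrays lay above both premalignant arrays, but the difference of 0.14 (standard error, SE, 0.09; limma adjusted p = 0.402) did not pass the test. Ezh2, the hairpins' target, was 12.64 and 12.70 in premalignant cells and between 10.92 and 11.30 in the lymphomas. The 7 B cell marker genes used had mean signals between 11.58 and 11.84 on every array; Pax5, Ebf1 and Blnk were called lower and Cd22 higher in lymphomas.

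The promoters of the members were searched for the E-box, since the list is named for MYC. RefSeq windows (GRCm38.p6) running from 250 bases before to 50 bases after a transcription start were matched for 53 of the 60 genes. CACGTG, which reads the same on both strands, was present in 14 of them (26.4%), against 8.09% of 27025 genes with a window and 12.1% of the genes whose windows were at least as GC-rich as the median member (59.3% GC). The 14 were 7 small subunit, 4 large subunit and 3 polymerase I genes. None of the 6 snoRNP genes or the 2 several-role genes with a window held it. The sites below are those of the members with an E-box that rose in lymphomas (Nle1 and Wdr43) and of those with an E-box before the start, written 5′ to 3′ along the gene with the E-box in capitals.
Nle1: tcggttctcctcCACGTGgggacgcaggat
Wdr43: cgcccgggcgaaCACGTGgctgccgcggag
Utp18: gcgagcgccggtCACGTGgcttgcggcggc
Dhx33: ccagcacgcctgCACGTGgcgagaaagggg
Nop2: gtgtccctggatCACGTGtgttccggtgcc
Imp4: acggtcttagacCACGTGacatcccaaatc
The stretches lie at chr11:82908355-82908384, minus strand for Nle1, chr17:71616220-71616249, plus strand for Wdr43, chr11:93885769-93885798, minus strand for Utp18, chr11:71004450-71004479, minus strand for Dhx33, chr6:125131811-125131840, plus strand for Nop2 and chr1:34439696-34439725, plus strand for Imp4. Counted from the start of transcription as base 1, the E-box begins at base 24 in Nle1 and base 18 in Wdr43, and at bases -20, -35, -60 and -121 in Utp18, Dhx33, Nop2 and Imp4.

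Rrn3, the initiation factor that brings polymerase I to the rRNA gene, was the member with a pair of E-boxes. Its 250 bases before the start (chr16:13780449-13780698, plus strand) are shown to place both.
Rrn3: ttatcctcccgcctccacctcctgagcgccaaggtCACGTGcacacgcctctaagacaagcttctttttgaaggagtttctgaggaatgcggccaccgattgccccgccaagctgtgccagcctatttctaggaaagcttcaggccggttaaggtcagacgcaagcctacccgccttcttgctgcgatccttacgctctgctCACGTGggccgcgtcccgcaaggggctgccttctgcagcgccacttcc
Rcl1, the member with the largest difference between lymphomas and premalignant cells, had no E-box in its window. It was picked for that difference, and its 250 bases before the start (chr19:29101125-29101374, plus strand) are also shown.
Rcl1: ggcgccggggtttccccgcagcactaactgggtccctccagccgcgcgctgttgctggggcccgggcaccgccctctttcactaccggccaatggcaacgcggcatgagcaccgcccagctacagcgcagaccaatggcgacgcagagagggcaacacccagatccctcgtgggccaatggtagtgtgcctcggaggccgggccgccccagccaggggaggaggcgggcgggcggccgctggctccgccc
Among measured members with a window, 2 of the 14 with an E-box and 6 of the 37 without one rose in lymphomas, and their median differences were 0.16 and 0.18. A match of these letters is a description of the window and does not show that MYC binds there.

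Lymphomas of both hairpins were compared with premalignant cells first. Members were slightly higher in lymphomas, by a median of 0.18 (an increase of 13.2%), against a median of 0.025 over all genes. Of the 58 measured members 8 rose and none fell at a limma adjusted p under 0.05, against 5.6% of all genes that were called higher and 9.61% called lower. The 8 were Rcl1, Rrp9, Nop14 and Wdr43 of the small subunit, Wdr12, Rrp1b and Nle1 of the large subunit, and the polymerase I subunit Polr1c. The difference was above 0 for 56 of 58 members, and for 55.6% of all genes. In 36 members all 4 lymphoma arrays lay above both premalignant arrays, as they did in 12.7% of all genes, and in none did they all lie below, against 16.1% of all genes. Among the brighter genes alone (highest array value of at least 7.10, which all 58 members reach) 9 members were called higher, but so were 10% of all genes kept, whose median difference was -0.026. Differences ran from -0.08 for Dhx33 to 0.47 for Rcl1, so no member reached a 2-fold change.

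**Figure D1:**
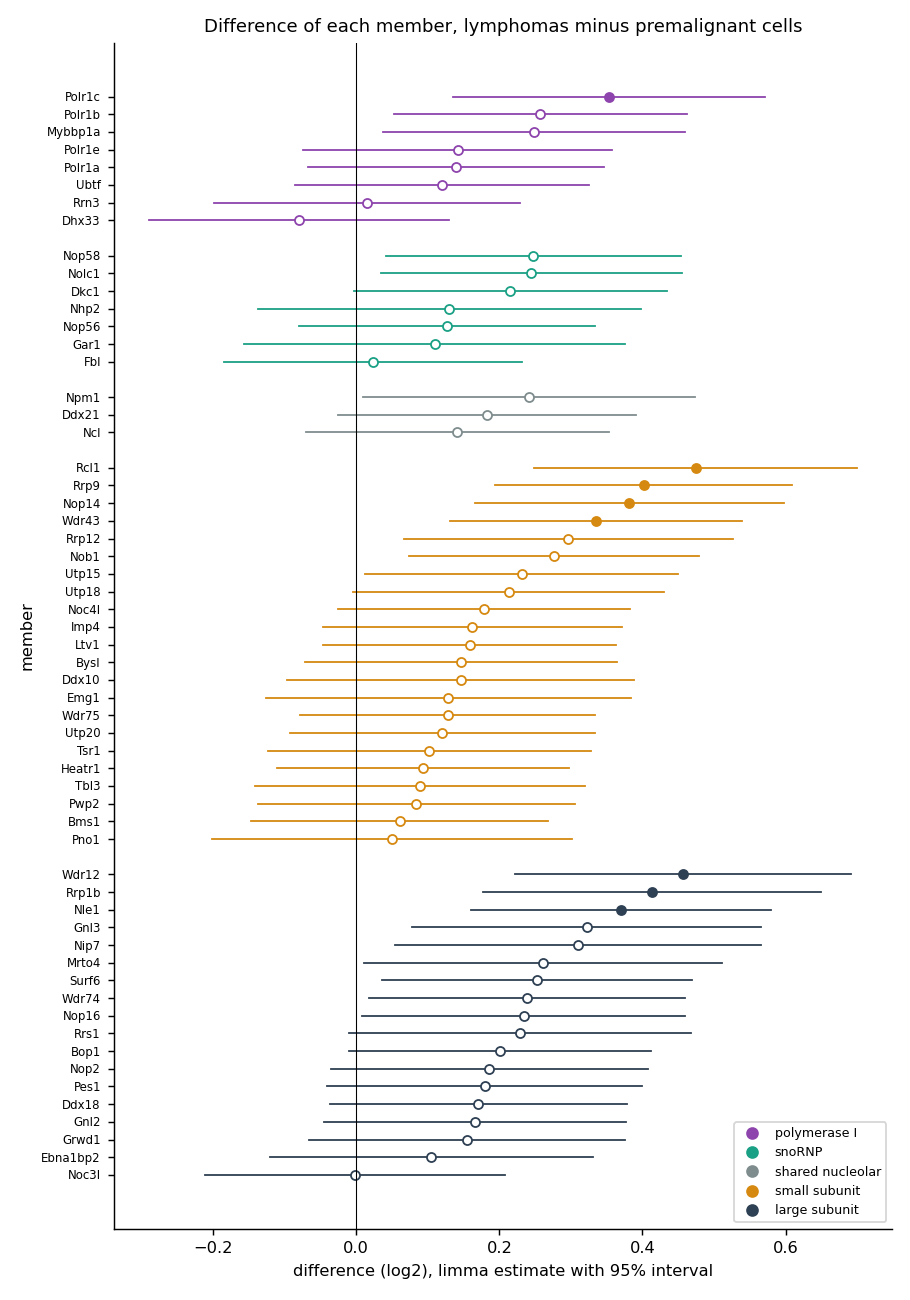
Difference of each of the 58 measured members between lymphomas and premalignant cells in log2 units, sorted by role, with the limma estimate (points) and its 95% interval (lines). Filled points mark the 8 members that rose, and nearly all points lie to the right of 0.

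The calls rest on few arrays. In place of 8, limma called 4 members without premalignant array 1 (3.47% of all genes were called higher in that fit) and 0 without premalignant array 2 (10 at an unadjusted p under 0.05; 3.22% of all genes called). The count was 4 without shEzh2.781 array 2 (4.92% of all genes), 5 without shEzh2.556 array 1 (4.65%) and 5 without shEzh2.556 array 2 (5.06%). It was 14 after quantile normalization (7.25% of all genes) and 15 when the prior variance was allowed to follow the signal (6.38%). With the lymphomas fitted as 1 group 1 of 58 members was called, beside 2.05% of all genes. The premalignant arrays differed on these genes: 48 of 58 members were higher on array 1 than on array 2, by a median of 0.07, whereas over all genes the median was -0.08 and 34.7% were higher on array 1. Leaving out an array can only keep or raise the count of members whose lymphoma arrays lie above all premalignant arrays. Such fits therefore cannot show how stable that count is.

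Other blood cells were also represented unequally. All 10 neutrophil markers were called lower in lymphomas, with mean signals of 9.13 and 9.38 on the premalignant arrays and 6.33 to 8.44 on the lymphoma arrays. Of 8 erythroid markers measured, 7 were called lower, with mean signals of 8.09 and 8.33 against 6.26 to 8.06. Set apart by hairpin, 8 of 8 erythroid markers were called lower with shEzh2.781 and 0 of 8 with shEzh2.556, and 8 and 10 of the 10 neutrophil markers were. Of 7 T cell markers 2 were called lower, Cd4 and Cd8a, but not Cd3e, Cd3d or Cd3g. Of 5 platelet markers 3 were called lower. Macrophage markers were mixed: 3 of 8 were called higher, but 3 had differences at or below 0, with -1.23 for Lyz2 (limma adjusted p = 0.0677). The part of these cells in the differences of ribosome biogenesis genes was not tested, and in bulk RNA fewer cells of a type and less RNA per cell cannot be told apart.

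Small subunit factors held 4 of the 8 genes that rose. These were 18.2% of the group, beside 16.7% of large subunit factors, 12.5% of polymerase I factors and 5.6% of all genes. Among the brighter genes alone a larger share was called higher, as given above, and this applies to each role group. All 22 had differences above 0, as had 55.6% of all genes, with a median of 0.15. In 13 (59.1%) the lymphoma arrays lay wholly above premalignant ones, as in 12.7% of all genes. Rcl1, a processome protein that works with the GTPase Bms1, had signals of 10.94 and 10.89 in premalignant cells, 11.28 and 11.47 with shEzh2.781, and 11.48 and 11.32 with shEzh2.556. It rose by 0.47 (SE 0.10, adjusted p = 0.00815), 1.39-fold, and the lymphoma arrays did not overlap the premalignant ones. Rrp9, the protein specific to the U3 snoRNP that pairs with the rRNA precursor, measured 10.32 and 10.27, then 10.77 and 10.72, then 10.70 and 10.60. Its premalignant arrays were close together and all lymphoma arrays lay above them, a rise of 0.40 (SE 0.10, adjusted p = 0.0132).

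Nop14, a core protein of the processome, was 10.19 and 10.15 in premalignant cells, 10.48 and 10.61 with shEzh2.781 and 10.49 and 10.62 with shEzh2.556. It rose by 0.38 (SE 0.10, adjusted p = 0.0212). Wdr43, a member of the complex that binds the precursor first, measured 11.57 and 11.53, then 11.84 and 11.88, then 11.88 and 11.92. Its rise of 0.34 (SE 0.09, adjusted p = 0.0307) was seen to about the same extent on each lymphoma array. Nob1, the nuclease that makes the final cut of small subunit rRNA, was 11.10 on both premalignant arrays and 11.36 to 11.40 on the lymphoma arrays. Its difference of 0.28 (SE 0.09) missed the threshold (adjusted p = 0.0691), although its groups did not overlap. Differences for Utp15, Utp18, Noc4l, Imp4 and Ltv1 were 0.23, 0.21, 0.18, 0.16 and 0.16, none of which passed. Processome members Heatr1, Pwp2, Tbl3 and Bms1 had differences of 0.09 or less, and Pno1, the partner of Nob1, had 0.05. The group thus ran from values near 0 to Rcl1 without a gap.

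Large subunit factors had the highest median of the 5 groups, 0.23, although the groups were not tested against each other. The order did not hold on shEzh2.556 array 2, where their median relative to premalignant cells was 0.15, the lowest of the 5. The premalignant arrays also lay farthest apart in this group, with medians of 0.07 and -0.07. Of 18 measured, 3 rose (16.7%, beside 5.6% of all genes) and 17 had differences above 0 (55.6% of all genes). In 12 (66.7%) the lymphoma arrays lay wholly above premalignant ones, as in 12.7% of all genes. Wdr12 forms the PeBoW complex with Pes1 and Bop1, which is needed to process large subunit rRNA. Its signal was 11.02 and 10.72 in premalignant cells, 11.40 and 11.36 with shEzh2.781, and 11.26 and 11.27 with shEzh2.556, a rise of 0.46 (SE 0.11, adjusted p = 0.0127). A dimmer probe set of Wdr12 gave 9.58 and 9.24, then 9.89 and 9.83, then 9.70 and 9.87, so its lymphoma arrays also lay above both premalignant arrays. Its partners Pes1 and Bop1 had smaller differences of 0.18 (adjusted p = 0.293) and 0.20 (adjusted p = 0.212), with no overlap between lymphoma and premalignant arrays for either.

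Rrp1b, a nucleolar protein that targets protein phosphatase to the nucleolus, was 10.62 and 10.43 in premalignant cells, 10.90 and 10.95 with shEzh2.781, and 10.83 and 11.06 with shEzh2.556. It rose by 0.41 (SE 0.11, adjusted p = 0.0222). Nle1, which takes part in release of factors from the large subunit precursor, measured 9.27 and 9.22, then 9.54 and 9.59, then 9.72 and 9.61, and rose by 0.37 (SE 0.10, adjusted p = 0.0211). In both genes the lymphoma arrays lay above the premalignant ones. Gnl3 (nucleostemin), a nucleolar GTPase of proliferating cells, was 11.39 and 11.06 in premalignant cells and 11.46 to 11.63 in lymphomas. Its premalignant arrays lay farther apart than its lymphoma arrays, and the difference of 0.32 (SE 0.11) did not pass (adjusted p = 0.0778). Nop16, Nop2, Gnl2 and Ddx18 differed by 0.23, 0.19, 0.17 and 0.17, with no overlap between lymphoma and premalignant arrays and no call. The dimmer probe set of Ddx18 did overlap, at 9.92 and 10.06 in premalignant cells and 10.01 to 10.30 in lymphomas. The files used here do not place the paired probe sets of Fbl, Wdr12, Mrto4 and Ddx18, so signal from near-identical copies of these genes is uncertain. Noc3l did not separate the groups (95% interval of the difference -0.21 to 0.21).

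Of 8 polymerase I factors 1 rose (12.5%, beside 5.6% of all genes and a larger share of the brighter genes). Polr1c, a subunit that polymerase I shares with polymerase III, was 10.77 and 10.74 in premalignant cells, 11.06 and 11.15 with shEzh2.781, and 11.20 and 11.02 with shEzh2.556. It rose by 0.35 (SE 0.10, adjusted p = 0.0322), and its premalignant arrays differed by much less than this. The large catalytic subunits followed in the same direction without a call: Polr1b was 11.71 and 11.67 in premalignant cells and at least 11.89 on each lymphoma array, a difference of 0.26 (adjusted p = 0.0934), and Polr1a had 0.14 (adjusted p = 0.396). Mybbp1a, a nucleolar protein that binds rRNA gene chromatin, differed by 0.25 (adjusted p = 0.116).

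Among the members, Rrn3 and Ubtf, which act in initiation by polymerase I, had smaller differences than the subunits Polr1b and Polr1c. Rrn3 was 11.01 and 10.88 in premalignant cells, 10.96 and 10.97 with shEzh2.781, and 10.90 and 11.01 with shEzh2.556. Every lymphoma array lay within or at the edge of the premalignant range, and the difference was 0.01 (95% interval -0.20 to 0.23). Ubtf, which holds rRNA genes in an open state, was 11.66 and 11.59 against 11.70 to 11.78. Its lymphoma arrays lay above the premalignant ones by a difference of 0.12 (SE 0.09, adjusted p = 0.475). Dhx33, a helicase linked to rRNA gene transcription, was the member with the lowest difference, -0.08 (adjusted p = 0.663).

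None of the 7 snoRNP proteins passed the limma test, and 2 had an unadjusted p under 0.05, as had 10.9% of all genes in the higher direction. Their median difference was 0.13, and 3 (42.9%) had lymphoma arrays wholly above premalignant ones, as had 12.7% of all genes. Nop58 of the box C/D particles, which guide methylation, was 10.68 and 10.61 against 10.81 to 10.99 (difference 0.25, adjusted p = 0.109). Nolc1, a chaperone of snoRNPs, was 11.28 and 11.24 against 11.36 to 11.59 (difference 0.24, adjusted p = 0.12), and Dkc1, the pseudouridine synthase, had a difference of 0.22 (adjusted p = 0.195). Fbl, the methyltransferase fibrillarin, was 12.16 and 12.05 against 12.09 to 12.18, which overlap, with a difference of 0.02 (95% interval -0.18 to 0.23). Its dimmer probe set gave 11.75 and 11.67 against 11.81 to 11.94, so there the lymphoma arrays did lie above both premalignant arrays, unlike on the brighter probe set. Nop56 differed by 0.13 (adjusted p = 0.448), Nhp2 by 0.13 (adjusted p = 0.565) and Gar1 by 0.11 (adjusted p = 0.637).

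The abundant nucleolar proteins had lymphoma arrays above premalignant ones in 3 of 3 genes, beside 12.7% of all genes. None passed the limma test, and 1 had an unadjusted p under 0.05, as had 10.9% of all genes in the higher direction. Ncl (nucleolin), which binds the rRNA precursor and rRNA gene chromatin, was 12.40 and 12.38 in premalignant cells and 12.45 to 12.64 in lymphomas, a difference of 0.14 (adjusted p = 0.403). Npm1 (nucleophosmin), a histone and ribosomal protein chaperone, was 11.88 and 11.64 against 11.92 to 12.07, a difference of 0.24 (adjusted p = 0.168). Ddx21, a helicase that couples transcription and processing of rRNA, was 11.90 on both premalignant arrays and 12.02 to 12.13 on lymphoma arrays, a difference of 0.18 (adjusted p = 0.252).

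**Figure D2:**
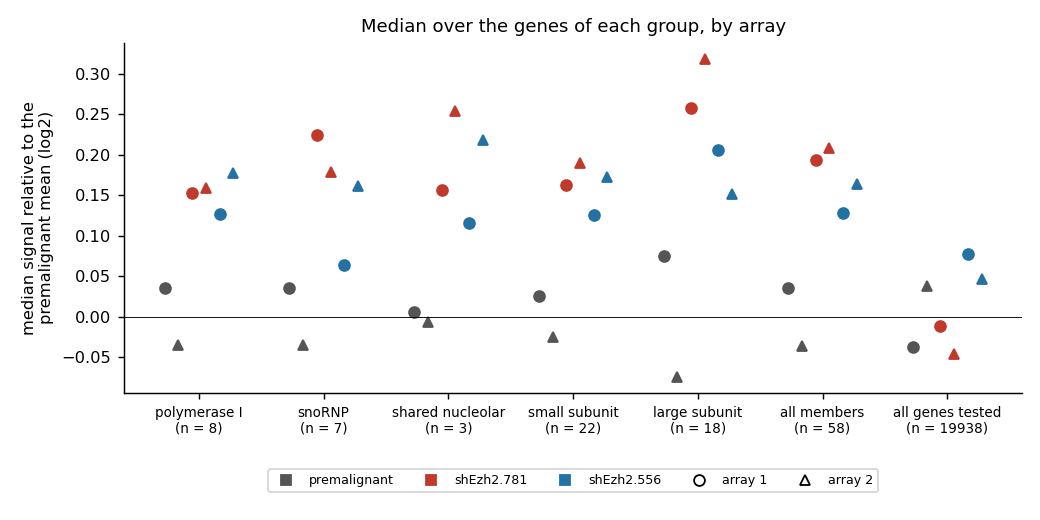
Median log2 signal of each role group on each array, relative to each gene's mean over the premalignant arrays, with all genes at the right. Colours give the group, circles array 1 and triangles array 2; over all members the lymphoma arrays sit between 0.13 and 0.21 and the premalignant arrays at 0.04 and -0.04.

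Each hairpin was then set against the same premalignant arrays. Because both comparisons share these controls, they are given side by side and not as independent results. With shEzh2.781 4 of 58 members rose and none fell, against 4.6% of all genes called higher and 6.24% called lower. These were Wdr12 (0.51, adjusted p = 0.0204), Rrp9 (0.45, adjusted p = 0.0209), Rcl1 (0.46, adjusted p = 0.0283) and Nip7 (0.51, adjusted p = 0.0314). The median difference was 0.21, with differences above 0 in 57 members and in 44.0% of all genes. In 45 members both shEzh2.781 arrays lay above both premalignant arrays, as in 22.0% of all genes, and in none both lay below (28.6% of all genes). At an unadjusted p under 0.05, 18 members were higher, as were 9.6% of all genes. Fewer than 4 calls were left without premalignant array 2 and without either shEzh2.781 array. The count was 10 when each array was centred on its median. The share of all genes called in that fit is not given here, so the 10 are not read as particular to the members.

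With shEzh2.556 8 members rose and none fell, against 6.8% of all genes called higher and 11.4% called lower. Small subunit factors made up 5 of them, Rcl1 (0.49, adjusted p = 0.0147), Rrp12 (0.48, adjusted p = 0.0181), Nop14 (0.38, adjusted p = 0.0365), Wdr43 (0.35, adjusted p = 0.0408) and Rrp9 (0.35, adjusted p = 0.0448). The large subunit factors were Nle1 (0.42, adjusted p = 0.0218), Rrp1b (0.42, adjusted p = 0.0348) and Wdr12 (0.40, adjusted p = 0.0428). Polr1c was just outside with either hairpin, at 0.36 (adjusted p = 0.0527) here and 0.35 (adjusted p = 0.0791) with shEzh2.781. The median difference was 0.15 beside 0.07 over all genes, and 56 members had differences above 0, as had 59.8% of all genes. In 38 members both shEzh2.556 arrays lay above both premalignant arrays, as in 35.8% of all genes, and in 1 both lay below, as in 26.5%. At an unadjusted p under 0.05, 13 members were higher, as were 16.0% of all genes. Fewer calls were made when either premalignant array or either shEzh2.556 array was left out. The count was 3 with arrays centred on their medians and 15 after quantile normalization. The share of all genes called in those fits is not given here, so these counts are not read as particular to the members.

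**Figure D3:**
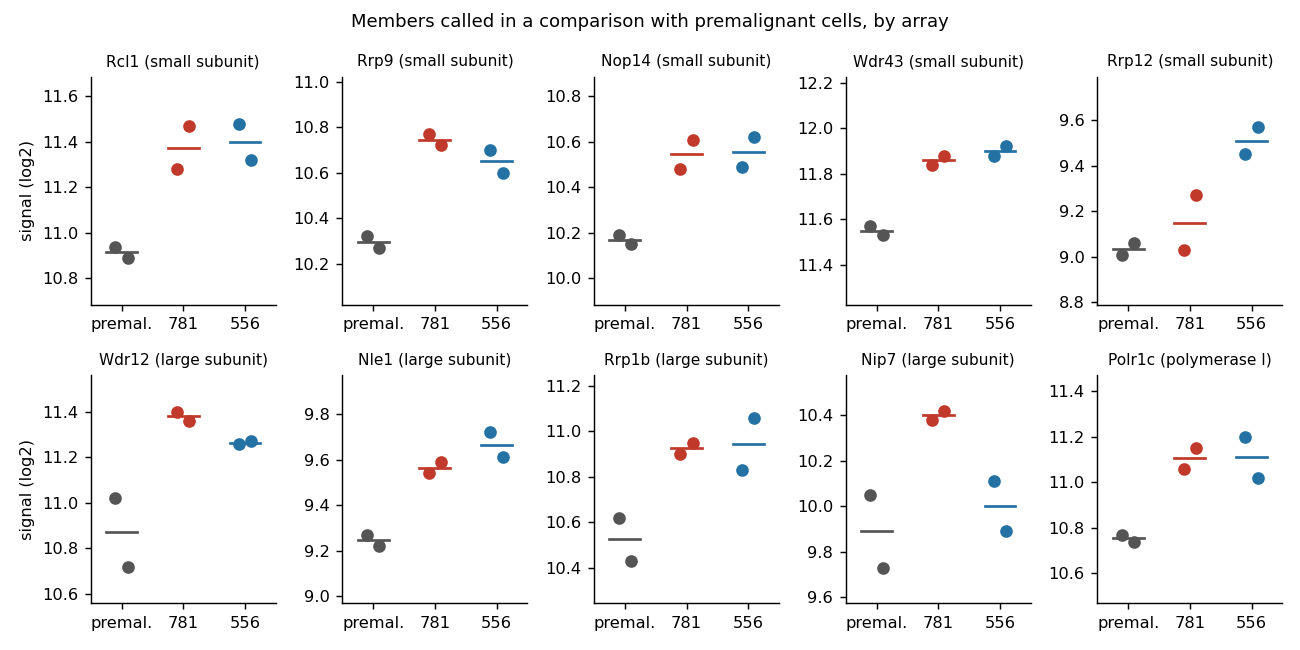
Log2 signal of the 10 members that rose in any comparison with premalignant cells, with a point for each array and a bar at each group's mean; every panel spans 1 log2 unit. In Rcl1, Wdr12 and Rrp9 all 4 lymphoma arrays sit above both premalignant arrays, while the shEzh2.556 arrays of Nip7 and the shEzh2.781 arrays of Rrp12 lie close to the premalignant ones.

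The lymphomas of the hairpins were last compared with each other. No member passed the limma test, against 5.5% of all genes called higher and 4.53% called lower with shEzh2.781. At an unadjusted p under 0.05, 3 members were higher and 1 lower, beside 13.1% and 17.9% of all genes. The arrays of the hairpins did not overlap in 22 members that were higher and 8 that were lower with shEzh2.781, beside 25.0% and 40.1% of all genes. The difference was above 0 in 36 of 58 members and in 40.1% of all genes. The median difference was 0.04, beside -0.07 over all genes. Its direction depended on the scaling, since it was -0.03 after quantile normalization and 0.15 after centring arrays on their medians. Markers of other blood cells also differed between the hairpins: 9 of 10 neutrophil markers were called higher with shEzh2.781 (median difference 1.71) and 8 of 8 erythroid markers lower (median -1.22). Their part in the differences between hairpins was not tested. The members nearest to a call were 2 large subunit factors, 1 small subunit factor and 1 polymerase I factor.

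Nip7, which joins the large subunit precursor, was 10.38 and 10.42 with shEzh2.781 and 10.11 and 9.89 with shEzh2.556, beside 10.05 and 9.73 in premalignant cells. The shEzh2.556 arrays thus fell in or near the premalignant range, and the hairpin difference was 0.40 (95% interval 0.10 to 0.69, adjusted p = 0.079; 0.0483 after median centring). Rrs1, a factor that brings a small ribonucleoprotein into the large subunit precursor, had the same order, with 9.94 and 9.88 against 9.60 and 9.51 and premalignant values of 9.65 and 9.35. Its difference was 0.35 (95% interval 0.08 to 0.63, adjusted p = 0.0895).

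Rrp12, which accompanies small subunit precursors through their late maturation, ran the other way. It was 9.01 and 9.06 in premalignant cells, 9.03 and 9.27 with shEzh2.781, and 9.45 and 9.57 with shEzh2.556, so that shEzh2.781 array 1 lay within the premalignant range. The difference of shEzh2.781 from shEzh2.556 was -0.36 (95% interval -0.63 to -0.10, adjusted p = 0.077; 0.0318 after quantile normalization). Dhx33 was 10.81 and 10.70 with shEzh2.781, 10.49 and 10.46 with shEzh2.556, and 10.74 and 10.65 in premalignant cells. It was the only member whose shEzh2.556 arrays both lay below both premalignant arrays, and its hairpin difference was 0.28 (95% interval 0.04 to 0.52, adjusted p = 0.116; 0.0498 after median centring). For the genes that rose in lymphomas the hairpins were close: the difference was -0.03 for Rcl1 (95% interval -0.29 to 0.23), 0.11 for Wdr12 (-0.16 to 0.38) and -0.00 for Polr1c (-0.26 to 0.25), which leaves room for differences of up to 0.38.

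**Figure D4:**
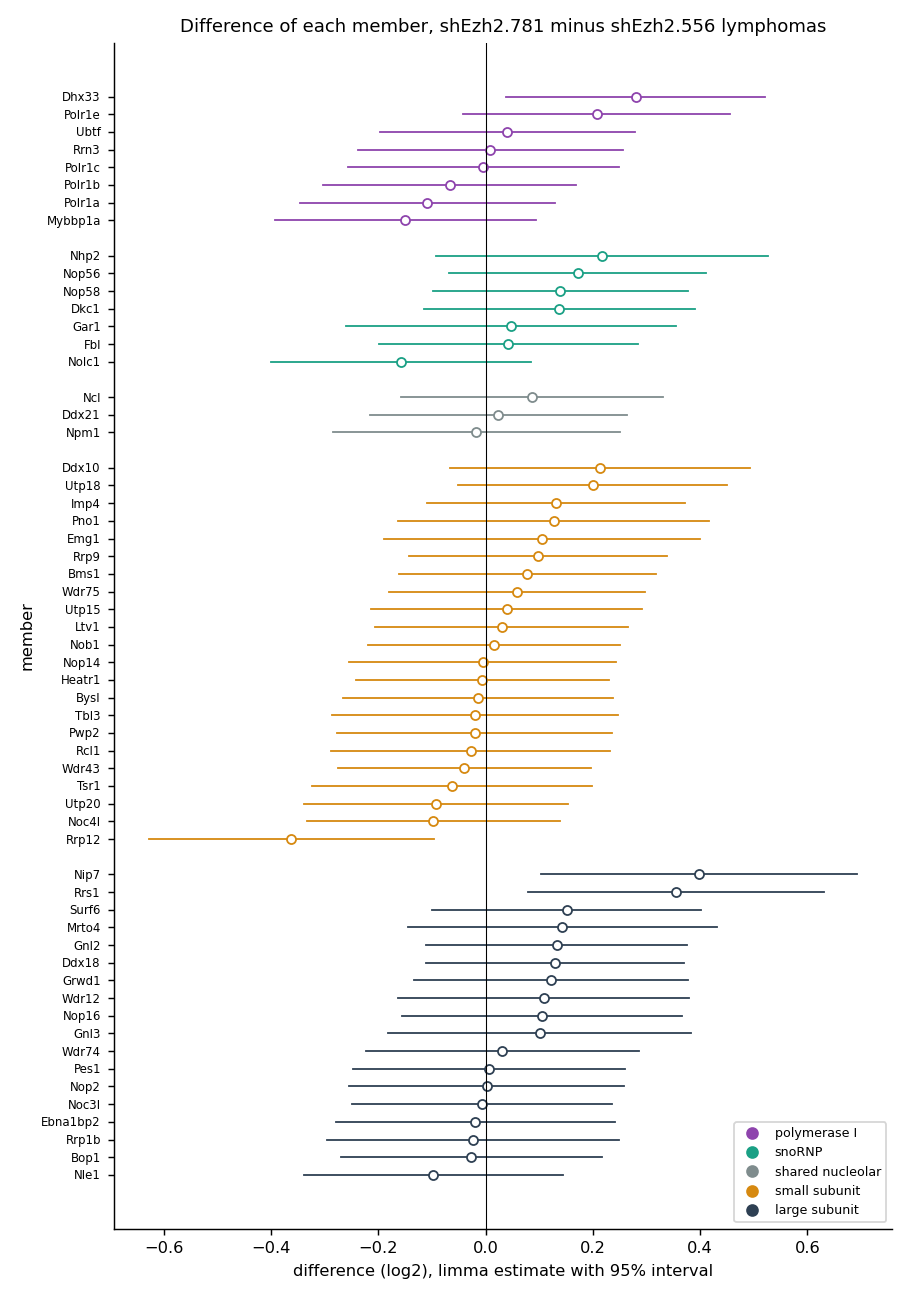
Difference of each measured member between shEzh2.781 and shEzh2.556 lymphomas in log2 units, sorted by role, with the limma estimate (points) and its 95% interval (lines). All points are open because no member passed the test; Nip7 (0.40) and Rrp12 (-0.36) lie farthest from 0.

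The other genes of the pathway were read from a wider list of 109 ribosome biogenesis genes, of which 106 were measured. In lymphomas 6 rose and 1 fell against premalignant cells, with a median difference of 0.09 and 84 differences above 0. Those that rose included Exosc2 of the exosome, which trims rRNA (0.35, adjusted p = 0.0234), Nufip1 and Shq1, which assemble snoRNPs (0.35 and 0.37, adjusted p = 0.0264 and 0.034), Taf1d of the polymerase I promoter factor (0.37, adjusted p = 0.0278) and Utp4 of the processome (0.32, adjusted p = 0.0396). The polymerase I subunit Cd3eap (0.32, adjusted p = 0.049) is named because it completes the 6, after its values were seen. The share called higher, 5.66%, was near the 5.6% of all genes, and the 1 that fell stands beside 9.61% of all genes called lower. Znrd1, a small subunit of polymerase I, fell by 0.39 (SE 0.10, adjusted p = 0.0173), with 9.38 and 9.39 in premalignant cells, 9.53 and 9.42 with shEzh2.781 and 8.59 and 8.45 with shEzh2.556. The shEzh2.781 arrays lay above the premalignant ones, so the lower mean came from shEzh2.556, where Znrd1 fell by 0.87 from premalignant cells (adjusted p = 0.000238). Without premalignant array 1, premalignant array 2 or shEzh2.781 array 2 the call of Znrd1 in lymphomas was lost (adjusted p = 0.0829, 0.0938 and 0.0531), as it was with the lymphomas as 1 group (0.589). The count of 6 that rose was 0 with the lymphomas as 1 group and 12 after quantile normalization. The share of all genes called higher was also lower in the first of these fits and higher in the second, as given above. Fewer than 6 rose when either premalignant array, either shEzh2.781 array or shEzh2.556 array 1 was left out. By hairpin, 4 rose and 0 fell with shEzh2.781, and 2 rose and 3 fell with shEzh2.556, against the same premalignant arrays. These are 3.77% higher with shEzh2.781, beside 4.6% of all genes, and 1.89% higher with shEzh2.556, beside 6.8%, so neither share exceeds that of all genes; the 3 that fell stand beside 11.4% of all genes.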

How the data were processed

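Biotin-labelled RNA from 6 samples was hybridised to Mouse Gene 1.0 ST arrays, per the labels. The authors deposited 1 normalised value per probe set. These deposited values were read as log2 from their range (2.30 to 14.2); the normalisation and summarisation methods are not given in the sources used here. The platform annotation gave 21789 of 35512 probe sets a single symbol, 1621 several and 12102 none; only those with a single symbol were named. RefSeq (GRCm38.p6) held the Entrez identifier of 21698 of them and updated none. For a gene with several probe sets the one with the highest mean over the 6 arrays was used, which gave 19938 genes; this applied to Fbl, Wdr12, Mrto4 and Ddx18 among the members.

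One limma model (limma 3.58.1, R 4.3.3) covered the 3 groups (lmFit, eBayes, no covariates; 8.51 prior and 3 residual degrees of freedom). "Lymphomas" is the mean of both hairpin groups. Benjamini-Hochberg adjustment ran over the whole gene table, with calls at an adjusted p under 0.05. Fits were tested on simulated arrays with known changes and independent noise, without effects of array or preparation. The share recovered at changes as small as those of the members is not given here. The number of arrays limits the precision. Alternatives were quantile normalization, median centring, a filter on dim genes, the mean over probe sets, limma-trend, other samples in the fit, a replicate block and leaving out each array. The members and lists were chosen with earlier results of these data known. Named were members called in any comparison, in each role the members with the smallest p (up to 5 for lymphomas, up to 4 between hairpins), Myc, Ezh2, Ncl, Npm1, Fbl, Polr1b, Rrn3 and Ubtf, any member where its role is described, and the 6 other pathway genes with the smallest p. Figures were drawn with matplotlib 3.10.9, and tables made with pandas 2.3.3 under Python 3.11.15. Promoter sequences are from RefSeq (GRCm38.p6).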

Additional observations from a re-analysis of the deposited data

Results flagged for a closer look

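In the wider pathway list, 8 of 106 genes (7.55%) had a tested difference between the hairpins, all of them higher with shEzh2.781 than with shEzh2.556. This share is near that of all genes, of which 5.5% were called higher and 4.53% lower. Between the same arrays 9 of 10 neutrophil markers were called higher with shEzh2.781 (median difference 1.71) and 8 of 8 erythroid markers lower (median -1.22), and their part in these differences was not tested. They are named because the test called them, after their values were seen. Znrd1 of polymerase I differed by 0.95 (limma adjusted p = 0.000443), and Taf1b of the polymerase I promoter factor by 0.59 (adjusted p = 0.0223). Among small subunit genes, Utp23 differed by 0.52 (adjusted p = 0.0312), the rRNA methyltransferase Dimt1 by 0.50 (adjusted p = 0.0325) and Ngdn by 0.42 (adjusted p = 0.0444). Znhit3 of snoRNP assembly differed by 0.48 (adjusted p = 0.0376), and the exosome subunits Exosc3 and Exosc8 by 0.45 (adjusted p = 0.0307) and 0.41 (adjusted p = 0.0358). After quantile normalization only Znrd1 and Exosc8 kept their calls among the 8 (adjusted p = 0.00341 and 0.0473), and with the mean over probe sets Exosc3 lost its call (adjusted p = 0.322). With the replicate number as a block the calls of Exosc8 (adjusted p = 0.0556) and Ngdn (adjusted p = 0.0549) were lost. Of the 106 genes, fewer than 8 were called higher when each lymphoma array was left out in turn. Znrd1 kept its call in each of these fits, with adjusted p of 0.000198 to 0.00784.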

How the results depend on the processing

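The counts of members called moved with the processing, and the medians less. The share of all genes called in each fit is not given beside these counts, so they are not read as particular to the members. For lymphomas against premalignant cells the count of 8 was 14 after quantile normalization, 15 with limma-trend and 1 with the lymphomas as 1 group, and 0 to 7 when an array was left out; the median of 0.18 was 0.15 to 0.23 without single arrays. For shEzh2.781 the count of 4 was 10 and the median 0.30 after median centring, and the count 13 with limma-trend; without single arrays the count was 0 to 4 and the median 0.18 to 0.26. For shEzh2.556 the count of 8 was 15 (median 0.21) after quantile normalization, 3 after median centring and 13 with limma-trend; without single arrays it was 0 to 6 and the median 0.10 to 0.21. Between hairpins 1 member was called after quantile normalization (median -0.029) and 2 after median centring (median 0.15). With the replicate number as a block the count for shEzh2.556 was 4, and the block moved no other count of members by over 1.5 times. Over all genes, the deviations of same-numbered arrays had correlations of -0.09, -0.12 and 0.06. These values cannot show whether same-numbered samples share a preparation or batch, since such an effect may touch only some genes. Some differences that were not called changed sign when an array was left out: Fbl (-0.031 to 0.079), Nhp2 (-0.043 to 0.30) and Rrn3 (-0.050 to 0.079) in lymphomas, Rrp12 with shEzh2.781 (-0.0078 to 0.24) and Nip7 with shEzh2.556 (-0.051 to 0.27). The causes were not tested. No called difference among the named genes changed sign. Signal over background is unknown for these values, so a floor could not be set.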
